A study of Homo sapiens with 9 samples.

Results

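Cells carrying the second of 2 hairpins against SNHG1 were compared with cells carrying the first. The comparison took the 3 libraries of shSNHG1#2 and the 3 of shSNHG1#1, 6 of the 9 RNA sequencing libraries of the series, and every one of the 23603 features with a gene symbol among 27407 features. All the libraries come from Weri-RB1/CRP, a human cell line labelled as retinoblastoma with resistance to the platinum drug carboplatin. Both groups carry a short hairpin RNA directed at SNHG1, a long noncoding RNA gene that hosts small nucleolar RNAs. The remaining 3 libraries carry shNC, the hairpin that the labels give as the control, and their values are printed for reference only and enter no contrast here. No library is labelled with a drug exposure or a time after hairpin delivery, and the labels do not say whether each line is a clone or a pool.

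A short hairpin RNA is cut by the cell into a small RNA that guides a silencing complex to matching transcripts. Hairpins of different sequence directed at one transcript share that target, but each can also lower other transcripts through partial matches, and double-stranded RNA can be read by sensors of viral RNA. These sensors lead to interferons, which act through the JAK and STAT proteins and IRF9 on interferon-stimulated genes, whose products restrict viruses at many steps. SNHG1 itself was not analysed here, so how far each hairpin lowered it is not shown. The sequences of the hairpins were not used here.

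Depth was close to equal, at 21502093 to 21606498 estimated counts in each library. One feature with no gene symbol took 12.2% to 13.5% of the counts with shSNHG1#1, 11.8% to 12.1% with shSNHG1#2 and 6.57% to 7.09% with shNC. Of 35 photoreceptor genes in the table, 3 to 5 reached 1 FPKM in a library, and the highest was the cone transducin gene GNAT2 at 16.0 to 19.6 FPKM, whereas the epithelial keratin KRT8 lay at 745 to 790.2 FPKM in the hairpin libraries. Most of the genes that define the labelled cell type were thus under 1 FPKM. Replicate 1 of shSNHG1#1 held transcripts of lung epithelium, leukocytes and vessels at levels that no other library reached, so counts below are also given without it. In bulk samples fewer cells of a type and less RNA per cell cannot be told apart. The labels do not say that replicates came from separate cultures, and each p-value therefore reflects only how these libraries vary, which may be technical.

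Differences between the hairpins were small and were more often toward a higher level with shSNHG1#2. Of 17573 genes tested, 564 (3.21%) passed an adjusted p of 0.05 in edgeR's quasi-likelihood test on counts, adjusted by the Benjamini-Hochberg method over all features tested. Of these, 359 (2.04%) were higher with shSNHG1#2 and 205 (1.17%) were lower. With scaling by library totals alone the split was 415 higher and 139 lower, a share of 74.9% higher against 63.7%, and the median log2 fold change of all genes was 0.017 in place of -0.0014. The median difference among the 564 genes was 1.19-fold, and 502 of them differed by less than 1.5-fold. The 3 libraries of one hairpin all lay above the 3 of the other in CPM (counts scaled to library size) for 3748 genes (21.3%), with 1922 (10.9%) higher and 1826 (10.4%) lower.

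Without replicate 1 of shSNHG1#1, 396 of 17835 genes (2.22%) passed, 269 (1.51%) higher and 127 (0.712%) lower. Of the original 564 genes, 355 passed again in the same direction, 248 higher and 107 lower. A further 41 genes passed only without that library, and 209 no longer passed. Leaving out other libraries gave 282 to 512 genes, and 236 genes passed in all 6 fits that left out 1 library each. Lower calls moved most, to 84 without replicate 3 of shSNHG1#1, and to 100, 53 and 70 without replicates 1, 2 and 3 of shSNHG1#2. Genes are named below by rule, as the 15 highest, the 15 lowest or the 4 with the smallest p of a list. Other genes with values were chosen after those values were seen. For the 15 highest and 15 lowest the rule required groups that do not overlap in CPM. The members named from a list were taken by smallest p, which favours groups that do not overlap. Non-overlap in the genes named by either rule is no added evidence.

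**Figure D1:**
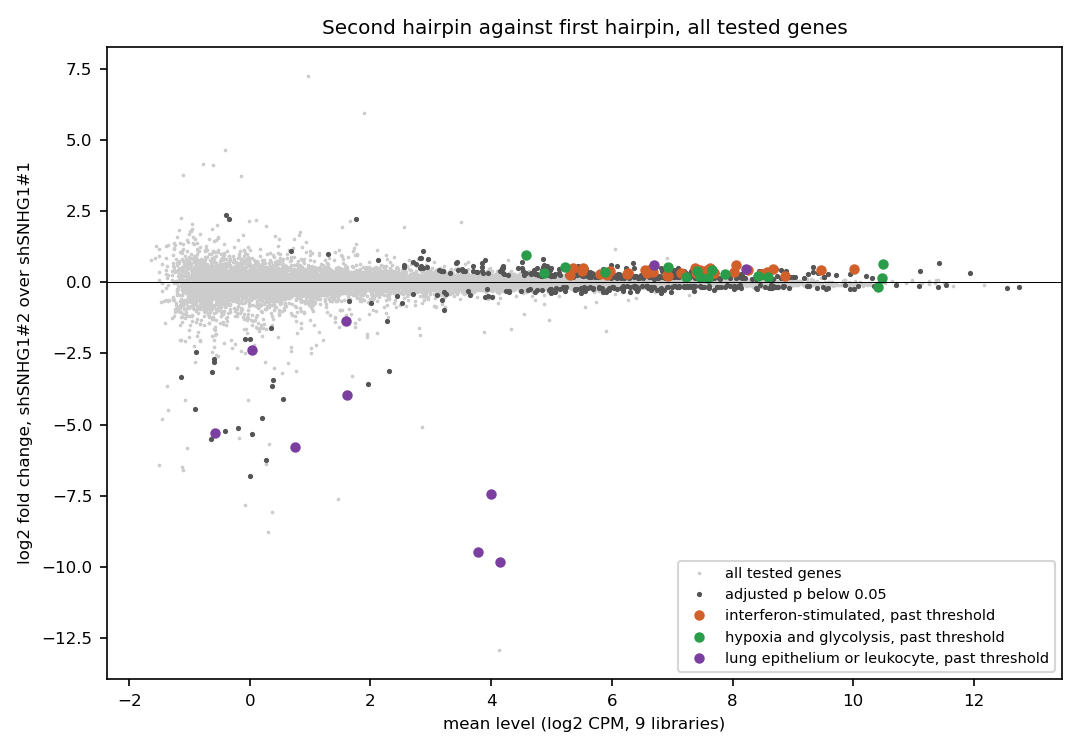
Log2 fold change of shSNHG1#2 over shSNHG1#1 against mean level in log2 CPM for 17573 tested genes, each point a gene, with genes past an adjusted p of 0.05 in darker colours. Interferon-stimulated and hypoxia genes past the threshold lie above 0, apart from ENO1, and close to the axis, while the lung epithelium and leukocyte genes past the threshold, apart from LAMP3 and CD68, lie below 0 with far larger differences.

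Interferon-stimulated genes were the list with the highest share of called members. All 53 genes of the list were tested, and 35 were higher with shSNHG1#2, 0 were lower and 18 did not pass, a share of 66% higher against 2.04% of all genes. The median log2 fold change of the list was 0.30, against -0.0014 for all genes tested. In CPM the libraries of shSNHG1#2 all lay above those of shSNHG1#1 for 42 of the 53 genes, against 10.9% of all genes. The count of higher genes was 33 without replicate 1 of shSNHG1#1 and between 32 and 37 over the 6 fits with 1 library left out, and 31 genes passed in all of them.

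MX1, a dynamin-like GTPase that traps viral ribonucleoproteins, had 102, 102 and 102 FPKM with shSNHG1#1 and 142, 138 and 142 FPKM with shSNHG1#2. The groups did not overlap, and the difference was 1.36-fold (95% interval 1.31 to 1.41, log2 fold change 0.45 ± 0.03 SE, adjusted p = 2.36e-05). Its relative MX2, which acts on capsids at the nuclear pore, was 1.30-fold (adjusted p = 0.00308) higher.

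The oligoadenylate synthetases make the messenger that switches on RNase L when they bind double-stranded RNA. OAS2 stood at 57.6, 56.8 and 57.5 FPKM with shSNHG1#1 and 79, 79.6 and 81.9 FPKM with shSNHG1#2. OAS3 stood at 75.7, 75.1 and 77.1 FPKM with shSNHG1#1 and 104, 105 and 101 FPKM with shSNHG1#2. Each library of shSNHG1#2 was above each library of shSNHG1#1 for both genes, with differences of 1.35-fold (adjusted p = 1.37e-05) and 1.33-fold (adjusted p = 1.44e-05). OAS1 was 1.29-fold (adjusted p = 0.000101) higher, while OASL, a family member without synthetase activity, did not pass, at 269, 257 and 273 FPKM with shSNHG1#1 and 251, 269 and 254 FPKM with shSNHG1#2 (adjusted p = 0.23). EIF2AK2, the kinase PKR that halts translation on binding double-stranded RNA, was 1.22-fold (adjusted p = 0.00157) higher.

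The proteins IFITM1 and BST2, which hold back viral entry or release at membranes, had the largest differences of the list. IFITM1, which blocks fusion of enveloped viruses, was measured at 259, 245 and 249.9 FPKM with shSNHG1#1 and 418, 375 and 369 FPKM with shSNHG1#2. All 3 shSNHG1#2 libraries were above all 3 shSNHG1#1 libraries, a log2 fold change of 0.60 ± 0.05 (SE) or 1.51-fold (adjusted p = 8.92e-05), and shNC had 476 ± 9.68 FPKM (SD, n = 3). IFITM1 is close in sequence to IFITM2 and IFITM3, which did not pass, so the share of reads between them is uncertain. BST2, or tetherin, which holds budding virions at the cell surface, had 28.9, 26.9 and 29.6 FPKM with shSNHG1#1 and 41.1, 40 and 39.9 FPKM with shSNHG1#2. The groups did not overlap and the difference was 1.42-fold (adjusted p = 8.92e-05). Outside that pair, XAF1, a partner of the apoptosis inhibitor XIAP, had 37.3, 40.9 and 38.5 FPKM with shSNHG1#1 and 54.6, 56.4 and 57 FPKM with shSNHG1#2. It was 1.42-fold (adjusted p = 2.36e-05) higher, again with no overlap. PARP9 and DTX3L, which form a complex that adds ADP-ribose and ubiquitin to chromatin proteins, were 1.41-fold (adjusted p = 3.67e-05) and 1.26-fold (adjusted p = 0.000342) higher.

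The list did not move as a block. ISG15, a ubiquitin-like modifier of proteins, stood at 378, 339.8 and 391 FPKM with shSNHG1#1 and 392, 381 and 358 FPKM with shSNHG1#2. Its groups overlapped, and the difference was 1.01-fold (95% interval 0.94 to 1.08, adjusted p = 0.954). IFIT1, which binds viral RNA that lacks cap methylation, stood at 194, 209 and 206 FPKM with shSNHG1#1 and 216, 235 and 238 FPKM with shSNHG1#2. Its levels did not overlap between the groups, but the difference of 1.12-fold did not pass (adjusted p = 0.0627). The other genes that did not pass were IFI6, IFIT2, IFITM2, IFITM3, RSAD2, HERC5, HERC6, ISG20, GBP1, GBP2, GBP3, DDX60, EPSTI1, RTP4, SHISA5 and OASL. That one gene passed and a neighbour in the list did not was not tested as a difference between them.

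**Figure D2:**
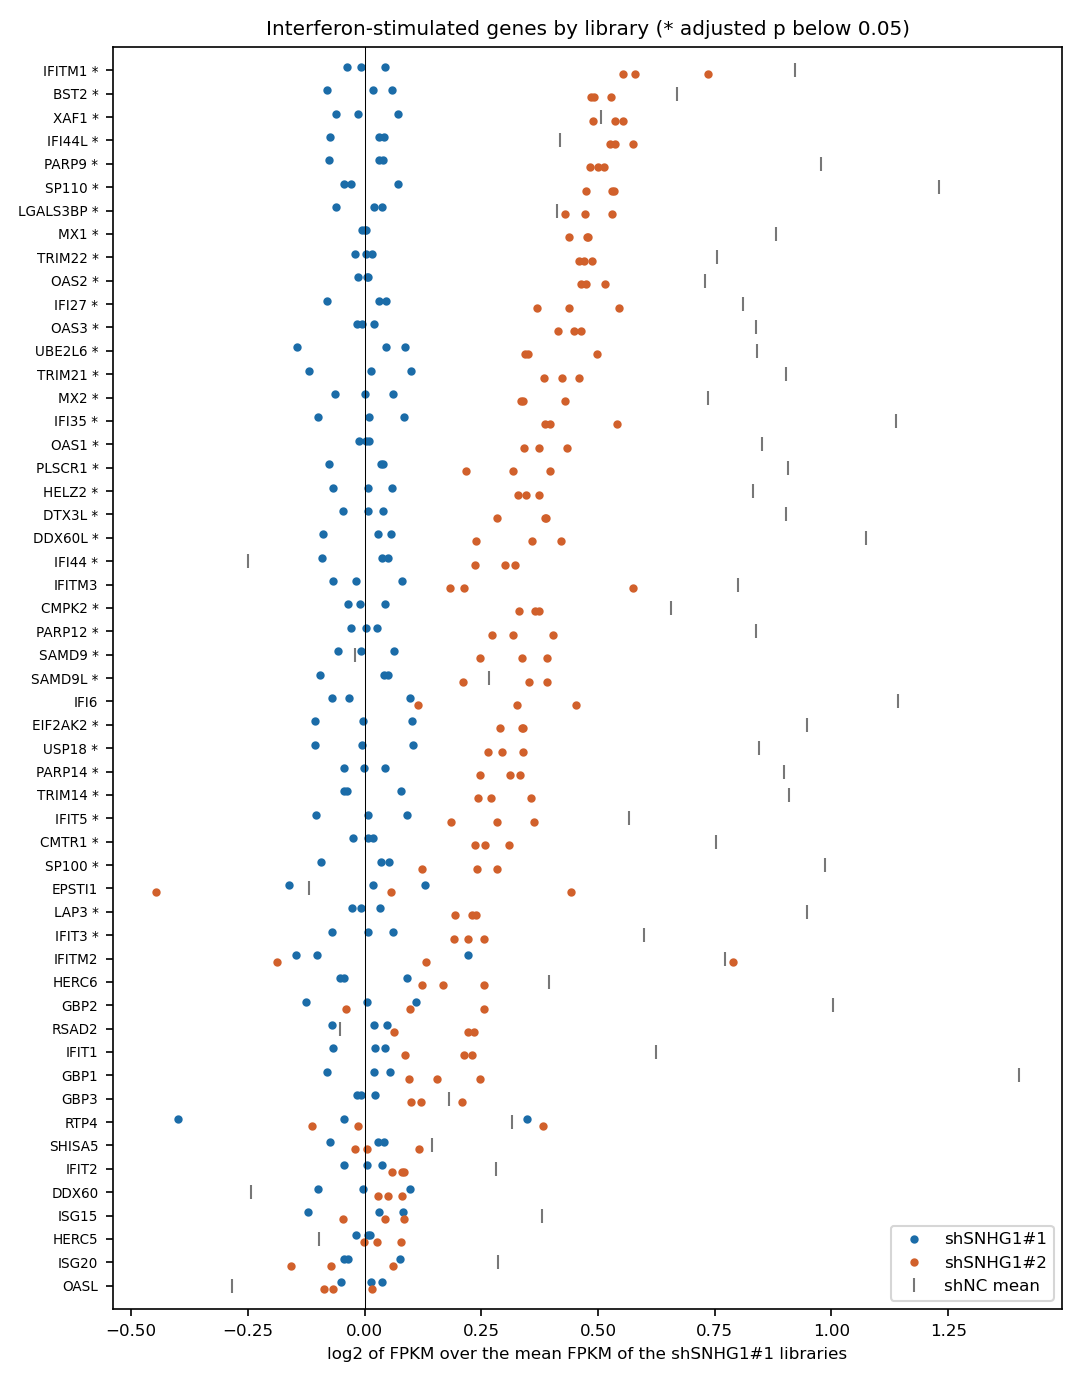
Each of 53 interferon-stimulated genes in a row, ordered by fold change, with the log2 of the FPKM of each library over the mean of the 3 shSNHG1#1 libraries on the horizontal axis. Points are libraries of shSNHG1#1 and shSNHG1#2, grey bars are shNC means, and asterisks mark the 35 genes past an adjusted p of 0.05, whose shSNHG1#2 points lie to the right of their shSNHG1#1 points.

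Interferon reaches many of these genes through the interferon-stimulated response element, which is bound by a complex of STAT proteins with IRF9. The letters GAAANNGAA, a core of that element, were searched on both strands of the RefSeq promoter windows of GRCh38.p14, 250 bases before to 50 after each gene's start, with overlapping matches counted. Of 45 interferon-stimulated genes with a window, 32 (71.1%) held a match, against 2264 of 27305 windows (8.29%) and 920 of 13372 windows of tested genes (6.88%). A match was present in 20 of 31 windows (64.5%) of the genes higher with shSNHG1#2 and in 12 of 14 (85.7%) of those that did not pass. The matches are a description of letters and were not tested against the differences. The 250 bases before the start are shown for a pair of genes that were higher, OAS3 and BST2, and a pair that did not pass, ISG15 and IFIT1, with the matched letters of either strand in capitals, because both pairs hold the same core at a like distance from the start.
OAS3 (chr12:112938224-112938473, plus strand): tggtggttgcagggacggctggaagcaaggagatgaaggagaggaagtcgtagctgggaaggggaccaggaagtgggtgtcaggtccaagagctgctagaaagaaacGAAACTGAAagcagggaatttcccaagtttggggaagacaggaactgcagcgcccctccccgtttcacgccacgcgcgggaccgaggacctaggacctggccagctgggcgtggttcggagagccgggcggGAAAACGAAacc
BST2 (chr19:17405631-17405880, minus strand): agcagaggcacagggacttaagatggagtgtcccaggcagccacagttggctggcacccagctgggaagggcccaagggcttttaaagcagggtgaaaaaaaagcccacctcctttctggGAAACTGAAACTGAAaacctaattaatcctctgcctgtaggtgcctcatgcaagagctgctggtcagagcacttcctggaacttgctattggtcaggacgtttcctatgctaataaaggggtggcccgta
ISG15 (chr1:1013247-1013496, plus strand): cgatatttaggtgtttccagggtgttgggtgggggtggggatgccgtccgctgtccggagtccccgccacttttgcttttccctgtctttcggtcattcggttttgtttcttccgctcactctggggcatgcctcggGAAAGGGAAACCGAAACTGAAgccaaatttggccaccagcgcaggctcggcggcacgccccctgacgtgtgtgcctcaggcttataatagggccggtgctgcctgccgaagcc
IFIT1 (chr10:89392373-89392622, plus strand): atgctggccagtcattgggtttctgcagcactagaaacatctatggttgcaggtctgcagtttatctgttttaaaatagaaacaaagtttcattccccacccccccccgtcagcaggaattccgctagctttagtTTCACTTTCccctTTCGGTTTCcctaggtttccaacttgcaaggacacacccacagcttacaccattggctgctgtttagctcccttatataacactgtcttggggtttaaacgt
The first match began -143 bases from the start in OAS3, -130 in BST2, -113 in ISG15 and -115 in IFIT1, and the windows held 2, 2, 3 and 2 matches.

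Sensors of double-stranded RNA and the proteins that pass on the interferon signal also leaned higher, with a smaller median. Of 38 genes tested, 10 (26.3%, against 2.04% of all genes) were higher with shSNHG1#2, 1 was lower (2.63%, against 1.17%) and 27 did not pass, and the median log2 fold change was 0.092. Among sensors, IFIH1, the helicase MDA5 that binds long double-stranded RNA, had 40.2, 42.3 and 42.2 FPKM with shSNHG1#1 and 49.2, 49.6 and 51 FPKM with shSNHG1#2. Its groups did not overlap and it was 1.18-fold (adjusted p = 0.00122) higher. TLR3, the endosomal sensor, was 1.21-fold (adjusted p = 0.0256) higher by counts. TLR3 did not pass without replicates 1 or 3 of shSNHG1#1 or replicates 1 or 2 of shSNHG1#2. The counts without 1 library fell to 6 higher without replicate 3 of shSNHG1#1 or replicate 2 of shSNHG1#2, and 6 genes passed in all 6 such fits.

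Transcription factors of the response were higher as well. IRF9, the DNA-binding part of the complex that interferon forms, stood at 22.4, 20.6 and 20.3 FPKM with shSNHG1#1 and 30.3, 29.2 and 28.7 FPKM with shSNHG1#2. STAT2, its partner, stood at 29.5, 29.3 and 30.2 FPKM with shSNHG1#1 and 34.8, 37.5 and 36.7 FPKM with shSNHG1#2. Neither gene overlapped between the hairpins, with differences of 1.34-fold (adjusted p = 0.000358) and 1.196-fold (adjusted p = 0.00124). IRF7, the factor that amplifies interferon production, was 1.42-fold (adjusted p = 0.00684) higher. The receptor chains IFNAR1 and IFNGR2, the editing enzyme ADAR and the ubiquitin ligase TRIM25 were also among the 10. JAK2, a kinase of the interferon gamma receptor, was the lower gene, at 6.89, 7.22 and 7.11 FPKM with shSNHG1#1 and 5.82, 6.22 and 5.88 FPKM with shSNHG1#2. It was 1.199-fold (adjusted p = 0.0111) lower, and it did not pass without replicate 3 of shSNHG1#1 or replicates 1 or 3 of shSNHG1#2. The interferon genes IFNB1, IFNL1, IFNL2 and IFNL3 did not pass.

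Genes of antigen presentation by MHC class I, which shows peptides of the cell's own proteins to T cells, were higher in part. Of 21 genes tested of 22 listed, 8 (38.1%, against 2.04% of all genes) were higher with shSNHG1#2, 0 lower and 13 did not pass, with a median log2 fold change of 0.20. The light chain B2M had 842, 797 and 824 FPKM with shSNHG1#1 and 1024, 1005 and 995 FPKM with shSNHG1#2. TAP1, a subunit of the peptide transporter, had 48.7, 44.1 and 48.1 FPKM with shSNHG1#1 and 61.9, 61.2 and 60 FPKM with shSNHG1#2. The groups of both genes stood apart, with differences of 1.21-fold (adjusted p = 0.000362) and 1.27-fold (adjusted p = 0.00147). HLA-E was 1.23-fold (adjusted p = 0.00798) and HLA-F 1.31-fold (adjusted p = 0.0119) higher, and PSMB10, ERAP1 and NLRC5 were also among the higher genes. HLA-F did not pass without replicate 3 of shSNHG1#1. HLA genes are near-identical copies, and reads can be shared between them. The number of higher genes was 5 without replicate 3 of shSNHG1#1 and 5 without replicate 2 of shSNHG1#2.

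Inflammatory genes driven by NF-kB split in direction. Of 48 tested, 6 (12.5%, against 2.04% of all genes) were higher with shSNHG1#2, 8 were lower (16.7%, against 1.17%) and 34 did not pass, with a median log2 fold change of -0.029. The higher members included complement factor B, CFB, at 113, 109.6 and 111 FPKM with shSNHG1#1 and 151, 149 and 147 FPKM with shSNHG1#2. Complement C3 had 155, 157 and 157 FPKM with shSNHG1#1 and 191, 186 and 181 FPKM with shSNHG1#2. LCN2, which binds bacterial iron carriers, had 141, 127 and 128 FPKM with shSNHG1#1 and 204, 187 and 177 FPKM with shSNHG1#2. The groups of the 3 genes did not overlap, and the differences were 1.32-fold (adjusted p = 3.93e-05), 1.18-fold (adjusted p = 0.00105) and 1.42-fold (adjusted p = 0.000908). The apoptosis inhibitors BIRC2 and BIRC3 and the acute-phase gene SAA1 completed the higher members.

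The lower members included 4 chemokines that draw neutrophils. CXCL1 had 154, 147 and 151 FPKM with shSNHG1#1 and 127, 121 and 125 FPKM with shSNHG1#2. CXCL5 had 503, 524 and 531 FPKM with shSNHG1#1 and 443, 448 and 461 FPKM with shSNHG1#2. Both were lower in every shSNHG1#2 library, by 1.23-fold (adjusted p = 0.000342) and 1.17-fold (adjusted p = 0.00158). CXCL2 was 1.23-fold (adjusted p = 0.00179) lower and CXCL3 1.202-fold (adjusted p = 0.0148), and these genes are close copies of CXCL1. CXCL3 did not pass without replicates 1 or 3 of shSNHG1#1 or replicates 1 or 2 of shSNHG1#2. SOD2, the mitochondrial superoxide dismutase, was 1.15-fold (adjusted p = 0.001) lower, and TNFAIP2, CCL20 and IL6 completed the 8. With 1 library left out the higher count was 4, except 6 without replicate 2 of shSNHG1#1, and the lower count was 4 without replicate 2 of shSNHG1#2 and 5 without replicate 1 of either hairpin. Over the 6 fits 7 of the 14 genes passed every time.

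Genes switched on by low oxygen and genes of glycolysis made up the list with the most calls after the interferon-stimulated genes. Of 42 tested, 15 (35.7%, against 2.04% of all genes) were higher with shSNHG1#2, 1 was lower (2.38%, against 1.17%) and 26 did not pass, and the median log2 fold change was 0.099. LOX, the enzyme that crosslinks collagen, had 2.13, 2.26 and 2.16 FPKM with shSNHG1#1 and 4.35, 4.18 and 4.24 FPKM with shSNHG1#2. It was 1.92-fold (95% interval 1.77 to 2.09, log2 fold change 0.94 ± 0.06 SE, adjusted p = 2.36e-05) higher. This was the largest fold change among the genes that met the rule for the 15 highest. In shNC it had 8.16 ± 0.248 FPKM (SD, n = 3).

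Among regulators, EGLN3, a prolyl hydroxylase that marks HIF for degradation, had 24, 21.6 and 24 FPKM with shSNHG1#1 and 34.4, 34.4 and 35.5 FPKM with shSNHG1#2. NDRG1, a hypoxia and stress gene, had 202, 207 and 210.3 FPKM with shSNHG1#1 and 317, 325 and 323 FPKM with shSNHG1#2. Neither overlapped between the hairpins, with differences of 1.46-fold (adjusted p = 7.07e-05) and 1.54-fold (adjusted p = 2.04e-07), and shNC held 964 ± 17.9 FPKM (SD, n = 3) of NDRG1. Secreted factors were higher too. VEGFA, the vessel growth factor, had 33.3, 33.5 and 32.4 FPKM with shSNHG1#1 and 43.2, 44.2 and 44.9 FPKM with shSNHG1#2. ADM, the vasodilator adrenomedullin, had 37.8, 36.3 and 40.1 FPKM with shSNHG1#1 and 52.1, 52.2 and 52.8 FPKM with shSNHG1#2. All libraries of shSNHG1#2 were above those of shSNHG1#1 for both, by 1.31-fold (adjusted p = 8.92e-05) and 1.35-fold (adjusted p = 5.69e-05).

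Glucose handling showed smaller differences. HK2, which traps glucose in the cell, was 1.29-fold (adjusted p = 0.000671) higher, and the glucose carriers SLC2A1 and SLC2A3 were 1.17-fold (adjusted p = 0.00712) and 1.15-fold (adjusted p = 0.00821) higher. GPI and PDK1 were 1.11-fold and 1.26-fold higher, with adjusted p of 0.0261 and 0.0453. ENO1, the glycolytic enolase, was the lower gene, at 667, 618 and 664 FPKM with shSNHG1#1 and 589.9, 591 and 588 FPKM with shSNHG1#2 and 1.12-fold (adjusted p = 0.0126) lower. GPI did not pass without replicate 2 of shSNHG1#1 or replicates 1 or 2 of shSNHG1#2, PDK1 without replicates 1 or 3 of shSNHG1#1 or replicates 1, 2 or 3 of shSNHG1#2 and ENO1 without replicate 3 of shSNHG1#1 or replicates 2 or 3 of shSNHG1#2. CA9, the carbonic anhydrase that serves as a hypoxia marker, was 1.43-fold (adjusted p = 0.0217) higher but did not pass without any 1 of the shSNHG1#1 libraries. The number of higher genes was 11 without replicate 1 of shSNHG1#1 and 11 to 13 over the 6 fits, 10 genes of the list passing in each.

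**Figure D3:**
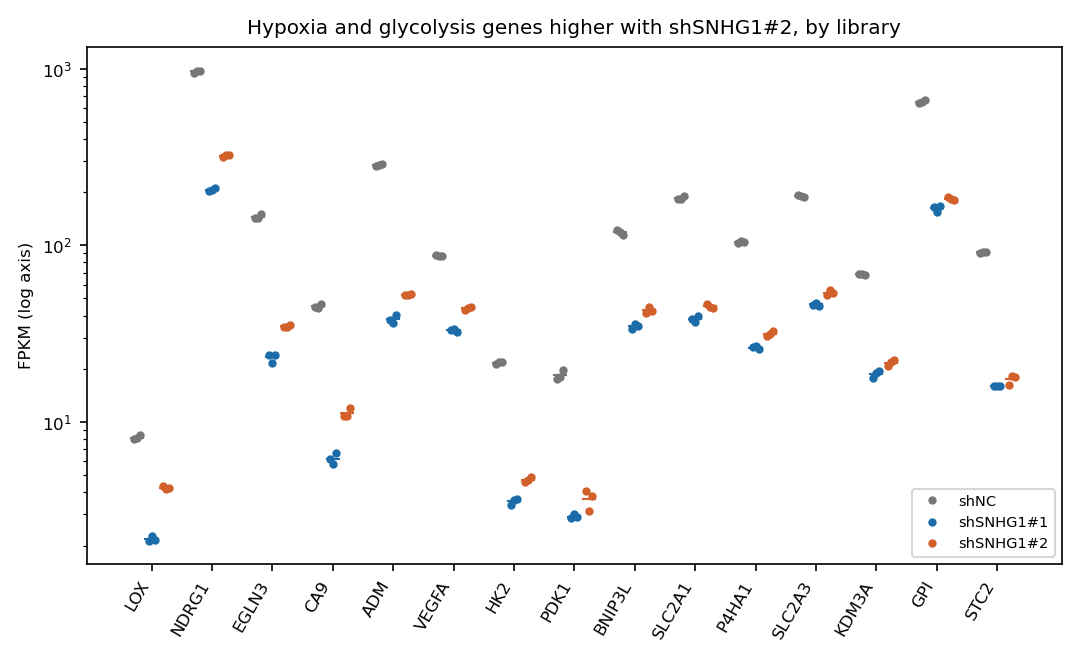
FPKM on a log axis of the 15 hypoxia and glycolysis genes higher with shSNHG1#2, ordered by fold change, with a point per library and a line at the mean of each group. For each gene the shSNHG1#2 mean lies above the shSNHG1#1 mean, with LOX at 4.35, 4.18 and 4.24 FPKM against 2.13, 2.26 and 2.16 FPKM, and the shNC libraries lie higher still.

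Glucose-responsive alpha-arrestins limit glucose uptake and traffic membrane proteins. Their list, with the MondoA factors and their partners, held 3 higher genes of 9 tested (33.3%, against 2.04% of all genes). It held 0 lower genes, and its median log2 fold change was 0.078. TXNIP, the thioredoxin-interacting member, had 38.8, 36.7 and 37.4 FPKM with shSNHG1#1 and 52.3, 54.6 and 52.3 FPKM with shSNHG1#2. ARRDC3 had 15.9, 16.5 and 16.6 FPKM with shSNHG1#1 and 22.9, 23.1 and 23.4 FPKM with shSNHG1#2. Neither gene overlapped between the hairpins, with differences of 1.36-fold (adjusted p = 0.00033) and 1.41-fold (adjusted p = 2.36e-05), and ARRDC4 was 1.39-fold (adjusted p = 0.00941) higher. The level in shNC lay below both hairpins for TXNIP, at 4.86 ± 0.339 FPKM (SD, n = 3), and above both for ARRDC3, at 55.1 ± 0.794 FPKM (SD, n = 3). All 3 genes passed in each fit with 1 library left out.

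In the list of keratins and mucins, 5 of 27 tested genes (18.5%, against 2.04% of all genes) were higher with shSNHG1#2 and 0 lower, with a median log2 fold change of 0.11. The gel-forming airway mucin MUC5B had 62.4, 62.2 and 61.3 FPKM with shSNHG1#1 and 84.6, 83.1 and 84.1 FPKM with shSNHG1#2. MUC5AC, its partner in mucus, had 153, 145 and 153 FPKM with shSNHG1#1 and 189, 189 and 178 FPKM with shSNHG1#2. The groups did not overlap for either, at 1.43-fold (adjusted p = 0.000148) and 1.30-fold (adjusted p = 0.000289). The membrane mucin MUC16 was 1.75-fold (adjusted p = 6.92e-05) higher, the mucosal trefoil peptide TFF1 1.80-fold (adjusted p = 0.00456) and KRT19 1.15-fold (adjusted p = 0.0386). KRT19 did not pass without replicates 1, 2 or 3 of shSNHG1#1 or replicates 1 or 3 of shSNHG1#2. Outside the list, CEACAM5, an adhesion protein of epithelia and a tumour marker, had 2.29, 2.47 and 2.49 FPKM with shSNHG1#1 and 4.41, 3.94 and 4.1 FPKM with shSNHG1#2, and CST1, a secreted cysteine protease inhibitor, had 20, 18.1 and 20.2 FPKM with shSNHG1#1 and 37.9, 32.3 and 29.9 FPKM with shSNHG1#2. They were 1.59-fold (adjusted p = 0.0029) and 1.70-fold (adjusted p = 0.00225) higher, and both belong to families of close copies.

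IGFBP3, a carrier of insulin-like growth factors, had the highest level among the 15 highest genes, with 556, 549 and 568 FPKM with shSNHG1#1 and 909, 913 and 904 FPKM with shSNHG1#2. It was 1.59-fold (adjusted p = 2.04e-07) higher. MT1X, a metal-binding metallothionein with many near-identical relatives, had 143, 132 and 141 FPKM with shSNHG1#1 and 235, 212 and 225 FPKM with shSNHG1#2 and was 1.59-fold (adjusted p = 0.000146) higher. CLEC2B, a ligand for a receptor of natural killer cells, was 1.62-fold (adjusted p = 0.000231) higher, and LGALS9, a galectin that acts on T cells, 1.51-fold (adjusted p = 0.000348). AGTR1, the angiotensin receptor, was 1.62-fold (adjusted p = 0.000885) higher, GREM1, a secreted BMP antagonist, 1.55-fold (adjusted p = 0.00341), and LAMP3, a lysosomal membrane protein that interferon also raises, 1.52-fold (adjusted p = 0.000146). The pseudogene ZDHHC8P1 was 1.75-fold (adjusted p = 0.00277) higher. LOC101929944, also among the 15, was 1.53-fold (adjusted p = 0.0172) higher and did not pass without replicate 3 of shSNHG1#1 or replicates 1 or 3 of shSNHG1#2.

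Among the 15 lowest genes by the rule (mean log2 CPM of at least 2, groups not overlapping, call kept without replicate 1 of shSNHG1#1), those other than the 3 surfactant genes were lower by less than 1.6-fold. EFEMP1, a secreted fibulin of the matrix, had 6.9, 6.15 and 6.17 FPKM with shSNHG1#1 and 4.01, 3.89 and 4.33 FPKM with shSNHG1#2. It was 1.56-fold (adjusted p = 0.00122) lower. ZC3H12A, a ribonuclease that degrades inflammatory messenger RNA, had 44.9, 43.9 and 46 FPKM with shSNHG1#1 and 35.3, 34.6 and 33.3 FPKM with shSNHG1#2 and was 1.31-fold (adjusted p = 0.000191) lower. ANPEP, a surface aminopeptidase, was 1.30-fold (adjusted p = 0.00512) lower, MXD1, a partner of MAX that opposes MYC, 1.29-fold (adjusted p = 0.00362), and the tetraspan TM4SF20 1.28-fold (adjusted p = 0.00227). LGALS1, a galectin of stroma and tumours, had 263, 243 and 258 FPKM with shSNHG1#1 and 216, 203 and 205 FPKM with shSNHG1#2 and was 1.26-fold (adjusted p = 0.000976) lower. DBI, which binds acyl-CoA, was 1.26-fold (adjusted p = 0.00878) lower. SERF2, ANK2 and EFR3B were 1.42-fold, 1.38-fold and 1.27-fold lower but did not pass in 1, 5 and 4 of the 6 fits with 1 library left out, with the highest adjusted p at 0.0539, 0.111 and 0.0735. RANBP10 was 1.26-fold (adjusted p = 0.011) lower by counts.

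ACO1, of iron handling, and 7 targets of the oxidative stress factor NRF2 were lower. ACO1 serves as an aconitase or, without its iron cluster, as a binder of iron-responsive messenger RNA, and had 21, 20.3 and 20.9 FPKM with shSNHG1#1 and 16.6, 16 and 17.1 FPKM with shSNHG1#2. It was 1.28-fold (adjusted p = 0.000908) lower. Of 31 NRF2 and glutathione genes tested, 7 (22.6%, against 1.17% of all genes) were lower with shSNHG1#2, 0 higher and 24 did not pass, with a median log2 fold change of -0.081. The ferritin light chain FTL, which stores iron, had 7172, 6859.5 and 6902 FPKM with shSNHG1#1 and 6265, 6208 and 5999 FPKM with shSNHG1#2. AKR1B1, an aldo-keto reductase, had 964, 871 and 962 FPKM with shSNHG1#1 and 799.8, 806 and 792 FPKM with shSNHG1#2. Every shSNHG1#2 library was below every shSNHG1#1 library for both, by 1.15-fold (adjusted p = 0.00325) and 1.18-fold (adjusted p = 0.00341). The aldo-keto reductases AKR1C1 and AKR1C2, which are close copies, were 1.15-fold (adjusted p = 0.00194) and 1.10-fold (adjusted p = 0.00512) lower, and FTH1, PRDX1 and TALDO1 completed the 7. The lower count was 4 without replicates 1 or 3 of shSNHG1#1 and 4 without replicates 2 or 3 of shSNHG1#2, 12 with DESeq2 and 2 with limma on log2(FPKM + 1).

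Of 53 genes of DNA replication 0 passed in either direction, with a median log2 fold change of -0.033, and 0 of the 35 Fanconi and recombination repair genes passed, with a median of -0.01. At an unadjusted p below 0.05 edgeR gave 9 and 1 genes of these lists, DESeq2 called 2 and 0, and limma on log2(FPKM + 1) called 0 and 0. Among 48 genes of mitosis 0 were higher and 4 (8.33%, against 1.17% of all genes) were lower (CDC25B, TOP2A, BIRC5 and PTTG1), against 9 lower with DESeq2, with a median of -0.11. BIRC5, the mitotic survivin, had 22.8, 23.3 and 23.2 FPKM with shSNHG1#1 and 19.1, 18.5 and 19 FPKM with shSNHG1#2. It was 1.23-fold (adjusted p = 0.00225) lower with no overlap, and it was the member of that list that passed in all 6 fits with 1 library left out. In the platinum list, 1 of 32 tested genes was higher (MT1X) and 1 lower (MGST3). That is 3.125% each way, near the 2.04% and 1.17% of all genes and so no result about the list. MGST3, a microsomal glutathione transferase, was 1.16-fold (adjusted p = 0.0173) lower. MGST3 did not pass without replicates 1 or 2 of shSNHG1#1 or replicates 1 or 3 of shSNHG1#2.

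Of 35 p53 targets 1 was higher and 1 lower, 2.86% each way, near the 2.04% and 1.17% of all genes and so no result about the list. PPM1D, a phosphatase that shuts off p53, was 1.19-fold (adjusted p = 0.00326) higher and PMAIP1, the death gene NOXA, 1.16-fold (adjusted p = 0.00743) lower. The list of BCL2 proteins, caspases and inhibitors of apoptosis shares PMAIP1, BIRC2, BIRC3 and BIRC5 with other lists. Of its 34 genes 2 (5.88%, against 2.04% of all genes) were higher (BIRC2 and BIRC3). In the same list 3 (8.82%, against 1.17%) were lower (MCL1, PMAIP1 and BIRC5). MCL1, a BCL2 protein that guards mitochondria, had 116, 119 and 118 FPKM with shSNHG1#1 and 98.9, 103 and 104 FPKM with shSNHG1#2. It was lower in every shSNHG1#2 library, by 1.17-fold (adjusted p = 0.000938).

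Lists of growth and protein upkeep gave few calls each, with more lower than higher genes. Of 78 cytosolic ribosomal protein genes 6 (7.69%, against 1.17% of all genes) were lower and 0 higher, with a median log2 fold change of -0.057. RPS3A had 442, 437 and 462 FPKM with shSNHG1#1 and 392, 394 and 389 FPKM with shSNHG1#2, with no overlap, and was 1.15-fold (adjusted p = 0.00308) lower, the single member to pass in all 6 fits with 1 library left out. Of 44 respiratory chain subunits 1 was lower (ATP5F1A), with a median of -0.09. That is 2.27%, near the 1.17% of all genes, and so no result about the list. Among 24 genes of fatty acid synthesis 4 (16.7%) were lower (ACLY, SCD, FADS2 and FADS3) and 0 higher. SCD, which puts the first double bond into fatty acids, had 143, 145 and 148 FPKM with shSNHG1#1 and 118, 125 and 129 FPKM with shSNHG1#2 and was 1.19-fold (adjusted p = 0.000682) lower. For the lists that follow, the shares over all genes were 2.04% higher and 1.17% lower. The cholesterol list had 2 lower of 30 (INSIG1 and FDPS) and the endoplasmic reticulum list 2 lower of 30 (PDIA4 and DERL1), 6.67% each. In the heat shock list 1 of 27 was higher (HSPA2, 3.7%) and 2 lower (HSPD1 and HSP90AA1, 7.41%). In the ATF4 list 1 of 44 was higher (STC2, 2.27%) and 2 lower (GDF15 and WARS, 4.55%). Without replicate 1 of shSNHG1#1, 0 genes of the ATF4 list passed in either direction, so this is no result about the list. None of the 10 genes named in the cholesterol, endoplasmic reticulum, heat shock and ATF4 lists passed in all 6 fits with 1 library left out. Of the ribosomal and fatty acid lists 1 gene each did. DESeq2 called more genes lower, with 15 ribosomal proteins, 7 respiratory chain subunits, 6 fatty acid genes and 4 cholesterol genes. It called 8 lower in the endoplasmic reticulum list, 6 in the heat shock list and 4 in the ATF4 list. Over all 17573 genes it also called more lower, 360 against 205 in edgeR. With 1 library left out, edgeR's lower count fell as far as 1 in the ribosomal and fatty acid lists. It fell as far as 0 in the respiratory chain, cholesterol, endoplasmic reticulum, heat shock and ATF4 lists.

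Genes near the hairpins' target and of its kind showed little. Of 13 tested neighbours of SNHG1 on the chromosome 0 passed. Of 18 genes of small RNA processing 0 passed, and of 36 genes of ribosome assembly 0 passed. In the list of small nucleolar RNA host genes, with 18 tested, the 1 call (5.56%, against 1.17% of all genes lower) was NEAT1. NEAT1 is a long noncoding RNA that is not known as such a host. It was 1.17-fold (adjusted p = 0.0455) lower and passed in none of the 6 fits with 1 library left out. In the 3 lists with 0 calls edgeR gave 1, 3 and 6 genes at an unadjusted p below 0.05, where it gave 2848 of all 17573 genes. DESeq2 called 0, 1 and 3 genes of these lists and limma on log2(FPKM + 1) called 0.

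Matrix, adhesion and growth factor receptor genes were mixed. In the matrix list 5 of 40 tested genes (12.5%, against 2.04% of all genes) were higher, among them COL4A5, COL4A6, COL5A2 and COL7A1. In the same list 2 (5%, against 1.17%) were lower (LAMB1 and PLAU). PLAU, the plasminogen activator urokinase, had 111, 105 and 114 FPKM with shSNHG1#1 and 95, 92.9 and 92.7 FPKM with shSNHG1#2. It was 1.195-fold (adjusted p = 0.00207) lower, with no overlap between the groups. FN1, the fibronectin gene, had 311, 319 and 326 FPKM with shSNHG1#1 and 405, 411 and 405 FPKM with shSNHG1#2 and was 1.25-fold (adjusted p = 3.58e-05) higher, and its receptor subunit ITGA5 was 1.12-fold (adjusted p = 0.00672) higher. The receptors EGFR and MET were 1.10-fold (adjusted p = 0.0205) and 1.12-fold (adjusted p = 0.00641) higher. With the ligand BTC and the feedback inhibitor ERRFI1 they made 4 higher of 16 tested (25%, against 2.04% of all genes). EGFR did not pass without replicate 3 of shSNHG1#1 or replicates 1, 2 or 3 of shSNHG1#2 and BTC without any 1 of the 6 libraries. Among 30 TGF-beta genes 3 (10%, against 2.04% of all genes) were higher, TGFBR2 and SMAD3 among them. The Hippo targets AXL and F3 were 1.21-fold (adjusted p = 0.000546) and 1.47-fold (adjusted p = 0.00153) higher, of 17 tested (11.8%, against 2.04%).

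The remaining lists gave few calls. DHRS2, a mitochondrial reductase, had 20.2, 20.2 and 19.9 FPKM with shSNHG1#1 and 28.7, 30.2 and 30.4 FPKM with shSNHG1#2. It was 1.44-fold (adjusted p = 8.96e-05) higher. DHRS3 and CYP1B1 were also higher and ALDH1A1 was 1.08-fold (adjusted p = 0.0319) lower among 19 aldehyde and retinoid enzymes. The shares were 15.8% higher and 5.26% lower, against 2.04% and 1.17% of all genes. ALDH1A1 did not pass without replicates 2 or 3 of shSNHG1#1 or replicates 1, 2 or 3 of shSNHG1#2. The histone genes HIST1H2AC and HIST1H2BD were 1.41-fold (adjusted p = 7.84e-05) and 1.24-fold (adjusted p = 0.00169) higher of 18 tested (11.1%, against 2.04% of all genes). PER1 and BHLHE40 were higher of 19 clock genes (10.5%, against 2.04% of all genes). MYC was higher and NR4A1 lower of 37 immediate early genes (2.7% each). CTSS was higher and NPC1 lower of 33 autophagy and lysosome genes (3.03% each). The immediate early and autophagy shares lie near the 2.04% and 1.17% of all genes and are no result about those lists. Of these 6 genes PER1 passed in all 6 fits with 1 library left out.

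**Figure D4:**
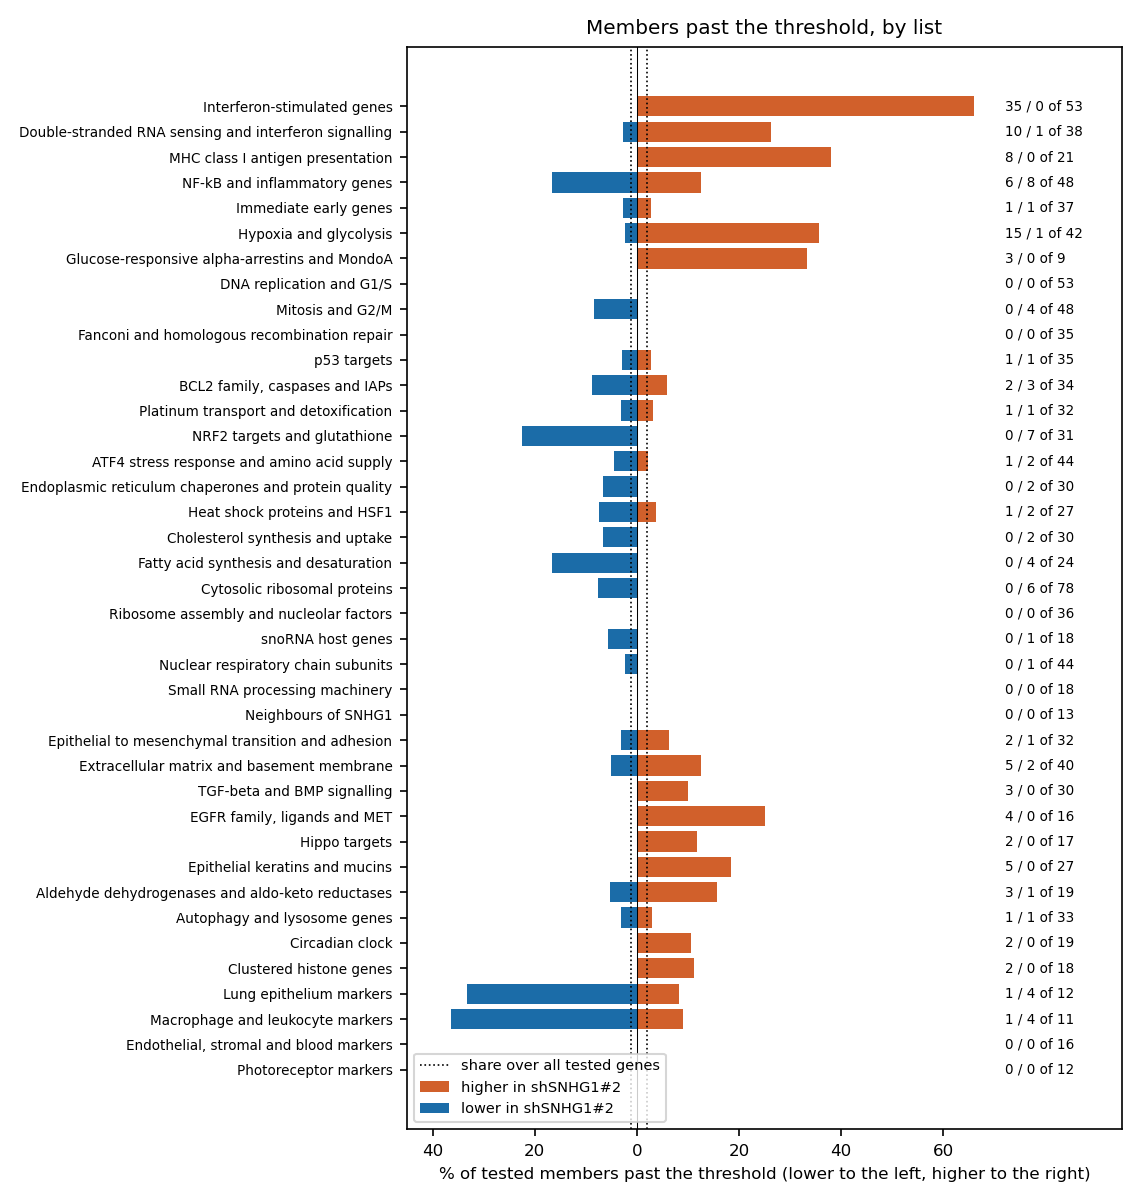
Bars give, for each of 39 lists, the percentage of tested members past an adjusted p of 0.05, higher with shSNHG1#2 to the right and lower to the left, with the counts beside them. Dotted lines mark the shares over all tested genes, 2.04% higher and 1.17% lower, and the longest bar is that of the interferon-stimulated genes with 35 of 53.

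The greatest fold differences among genes past the threshold belonged to transcripts of lung tissue. SFTPC, the surfactant protein of alveolar cells, had 139, 4.89 and 4.25 FPKM with shSNHG1#1 and 0.15, 0 and 0 FPKM with shSNHG1#2, and 5.53, 5.56 and 7.35 FPKM in shNC. Replicate 1 of shSNHG1#1 stood far above all other libraries, the other libraries of that hairpin were near the level of shNC, and the shSNHG1#2 libraries were at or near 0. Over the group this was 3042 estimated counts against 3, a ratio of 1013 (exact 95% interval 346 to 4916, for counting error only). Without replicate 1 it was 187 counts against 3, a ratio per library of 93.5 (31.5 to 457).

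SFTPB, which spreads the surfactant film, had 43.3, 2.21 and 1.83 FPKM with shSNHG1#1 and 0.1, 0.03 and 0.08 FPKM with shSNHG1#2, and SFTPA1, a surfactant collectin, had 49.5, 1.53 and 1.71 FPKM with shSNHG1#1 and 0.05, 0 and 0.02 FPKM with shSNHG1#2. The same library was the highest for both. SFTPA2, a near-identical copy of SFTPA1, had 58.1, 2.28 and 1.65 FPKM with shSNHG1#1 and was at 0 in all 3 shSNHG1#2 libraries. Without replicate 1 of shSNHG1#1 it had 188 estimated counts with shSNHG1#1 against 0 with shSNHG1#2. The edgeR adjusted p was 0.0423 for SFTPC, 0.0347 for SFTPB, 0.0454 for SFTPA1 and 0.0831 for SFTPA2. Without replicate 1 of shSNHG1#1 it was 0.000393, 9.67e-05 and 0.000951 for SFTPC, SFTPB and SFTPA1, so these genes remained lower with shSNHG1#2, but they did not pass when any 1 library of shSNHG1#2 was left out. The sodium and phosphate carrier SLC34A2 of alveolar cells had 4.03, 0.45 and 0.33 FPKM with shSNHG1#1 and 0.13, 0.1 and 0.07 FPKM with shSNHG1#2 (adjusted p = 0.0493, and 0.0221 without replicate 1 of shSNHG1#1), and its call too was lost without any 1 library of shSNHG1#2.

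Of 22 lung epithelium genes, 12 passed the low-count filter, with LAMP3 higher (8.33%, against 2.04% of all genes) and 4 lower (33.3%, against 1.17%). Their summed level was 415 FPKM in replicate 1 of shSNHG1#1, 98.0 and 98.8 FPKM in the other 2 libraries of that hairpin, 97.6 to 102 FPKM with shSNHG1#2 and 174 to 179 FPKM with shNC, and CAV1 was the highest member in every library but replicate 1 of shSNHG1#1. Between 7 and 9 of the 22 genes were at 0 in the shSNHG1#2 libraries, against 1 in each shSNHG1#1 library. Without replicate 1 of shSNHG1#1, 5 of 12 tested lung genes were lower, against 0.712% of all genes in that fit. Of 29 leukocyte genes 11 were tested, and 4 (36.4%, against 1.17% of all genes) were lower (PTPRC, HLA-DRB1, HLA-DPA1 and S100A9). CD68 was higher (9.09%, against 2.04%). HLA-DRB1, of antigen-presenting cells, had 8.77, 0.68 and 0.64 FPKM with shSNHG1#1 and 0, 0 and 0.2 FPKM with shSNHG1#2. Without replicate 1 of shSNHG1#1 none of those 4 passed, with adjusted p of 0.0631 to 0.0833. CD68, a lysosomal protein of macrophages that tumour cells also make, had 90, 87.4 and 83.5 FPKM with shSNHG1#1 and 124, 121 and 121 FPKM with shSNHG1#2 and was 1.38-fold (adjusted p = 0.000142) higher. Of 16 tested endothelial, stromal and blood genes 0 passed in edgeR, with 8 at an unadjusted p below 0.05. With 1 library left out up to 5 were lower. DESeq2 called 0 of the list but gave no adjusted p for A2M, so its 0 does not show that the genes were alike.

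The 10 genes with the greatest differences that passed with all libraries and not without replicate 1 of shSNHG1#1 were ENG, HLA-DRB1, HLA-DPA1, IGLL5, ADAM6, FPR1, PLCB2, FGR, LOC101927668 and FCN1. All are lower with shSNHG1#2. ENG, an endothelial receptor, had 1.97, 0.12 and 0.21 FPKM with shSNHG1#1 and 0, 0.05 and 0 FPKM with shSNHG1#2. IGLL5, of the immunoglobulin light chain locus, had 5, 0.69 and 0.71 FPKM with shSNHG1#1 and 0.09, 0.09 and 0 FPKM with shSNHG1#2. FPR1, the formyl peptide receptor of neutrophils, had 0.91, 0.43 and 0.46 FPKM with shSNHG1#1 and 0.07, 0 and 0 FPKM with shSNHG1#2. Replicate 1 of shSNHG1#1 was the highest library for each. ENG fell under the filter on low counts without that library.

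Among the 35 genes that passed and differed at least 2-fold, 30 were lower and 5 higher with shSNHG1#2. Of the 30 lower genes 25 had their highest level of all 9 libraries in replicate 1 of shSNHG1#1, 20 of the 35 were under 1 FPKM in both groups and 15 passed again without that library. Without the library that held most of the lung transcripts, 33 of 53 interferon-stimulated genes and 11 of 42 hypoxia genes were higher, against 35 and 15 with it. The share of all genes that were higher was 1.51% without it and 2.04% with it. Leaving out any 1 of the 6 libraries gave 32 to 37 and 11 to 13 genes, so these counts are not particular to that library. The part of the lung transcripts in the differences of other genes was not tested.

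**Figure D5:**
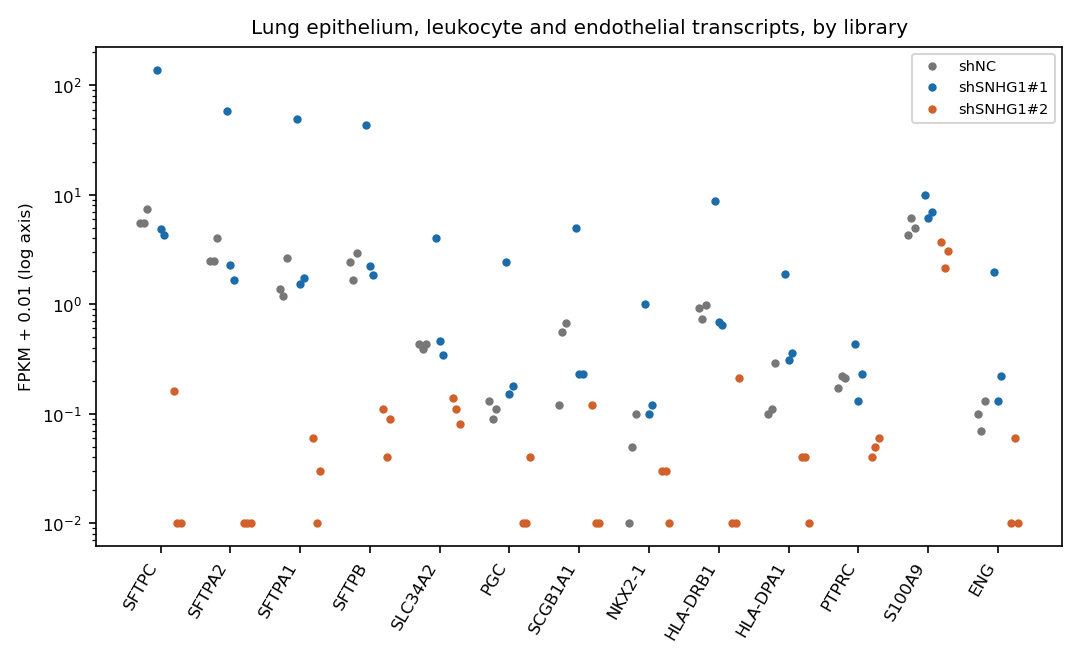
FPKM + 0.01 on a log axis for 13 transcripts of lung epithelium, leukocytes and endothelium, a point per library, coloured by group. Replicate 1 of shSNHG1#1 is the highest point for each gene, with SFTPC at 139 FPKM, and the shSNHG1#2 libraries are the lowest for the surfactant genes.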

How the data were processed

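RNA sequencing of 9 libraries was deposited as 1 table that gives, per the file headers, an estimated count and an expression value for each feature and library. The expression values are FPKM by the authors, a unit settled from the values and not named in the headers. The submitters' processing notes name RSEM 1.2.12, Bowtie2 2.2.5, HISAT2 2.0.4 and DESeq2 1.4.5. The sources used here do not give the genome build, the annotation or the use of strand. Values of overlapping genes and near-identical copies are therefore uncertain, and the deposited FPKM fold of a gene can differ from its count fold, as for ANK2, RANBP10 and TLR3. Group means deposited by the authors were not used.

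Estimated counts were rounded to whole numbers, and edgeR 4.0.16 (R 4.3.3) was run with TMM scaling, filterByExpr on the 3 groups, 1 quasi-likelihood fit to all 9 libraries, the contrast of shSNHG1#2 minus shSNHG1#1 and Benjamini-Hochberg adjustment over 18767 features. Features with no symbol stayed in the fit and were not reported. Intervals are at 95%. Alternatives used DESeq2 1.42.0 and limma 3.58.1 on log2(FPKM + 1) and log2(FPKM + 0.1). The test was checked on simulated counts. Replicates of a group differed by 2.67 to 5.25 in chi-square per degree of freedom, so no 2 libraries of a group agreed within counting noise.

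The genes compared and the 39 lists were chosen with earlier results of these data known. The genes named by rule had a symbol, an adjusted p below 0.05 with and without replicate 1 of shSNHG1#1, a mean log2 CPM of at least 2 and groups not overlapping in CPM, and were the 15 highest and the 15 lowest fold changes. To these came up to 4 members with the smallest p of each list, all lung epithelium genes, and the 10 with the largest change that lost their call without that replicate. Part of these genes is printed, and some are not reported here. Promoter sequences are from RefSeq, assembly GRCh38.p14, and 22938 of 23603 gene identifiers matched it.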

Additional observations from a re-analysis of the deposited data

How the results depend on the processing

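No gene named that passed the threshold passed in the opposite direction under any alternative run. The sign of genes that did not pass is not covered by this. The number of genes past the threshold was 564, against 948 with DESeq2, 368 with the 6 hairpin libraries alone and 210 with these 6 without replicate 1 of shSNHG1#1, an alternative chosen after seeing the data; it was 282 to 512 with 1 library left out. Higher genes numbered 359, against 588 with DESeq2 and 160 with the 6 libraries without that replicate, and 229 to 322 with 1 library left out. Lower genes numbered 205, against 360 with DESeq2, 105 with the 6 libraries alone, 97 and 95 with limma on log2(FPKM + 1) and log2(FPKM + 0.1) and 50 with the 6 libraries without that replicate, and 53 to 190 with 1 library left out. Genes changed at least 2-fold numbered 35, against 53 with no filter on low counts, 1 with DESeq2, 18 with the 6 libraries alone and also without that replicate, 5 and 21 with limma, and 14 to 52 with 1 library left out. The cause was not tested. DESeq2 gave no adjusted p for 85 of the 564 genes, and these were not counted as lost. Same-numbered libraries of the hairpins had deviations correlated at 0.081, 0.055 and -0.067, so the numbers were not taken to pair them; a fit with the replicate block gave 414 genes, 282 higher and 132 lower, with 22 at least 2-fold. With 1 library left out an arm keeps 2 libraries and shares the spread of the others. Where groups are near 0 counts, depth limits the precision of ratios.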
